A study of Mus musculus with 24 samples.

Results

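The aminoacyl-tRNA synthetases were followed as 36 genes chosen by name, 20 for enzymes of the cytosol and 16 for enzymes of the mitochondrion, whose symbols end in 2. All 36 were found by Ensembl identifier among the 35275 genes of the table of cultured cells and the 54532 genes of the table of tumors, and all 36 passed the filter on low counts in every comparison. Bulk RNA-seq libraries were available for D2.1 and D2A1, mouse mammary tumor lines of the D2 series that arose from hyperplastic alveolar nodules of BALB/c females. D2A1 forms rapidly growing tumors, whereas D2.1 passes through a dormant phase. Each line was represented by 3 libraries from culture, 4 from tumors in BALB/c mice, which are immunocompetent, and 5 from tumors in SCID-beige mice, which lack T and B cells and have defective NK cells. The hosts were female, 8 to 12 weeks old, and received parental cells in the mammary fat pad. Tumors of both lines were collected for sequencing at about the same size, and the paper describes the D2.1 tumors as later-stage. The D2.1 tumor libraries therefore need not show the dormant phase, and time in the host may differ between the lines. Each line is a single line, so a difference between lines is a difference between these 2 cell stocks.

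Library totals were 16837260 to 24818234 counts in culture and 13566949 to 18355153 in tumors. Whole tumors hold host cells besides tumor cells, and fewer cells of a type cannot be told apart from less RNA per cell. Summed markers of macrophages were 1.20 to 9.97 CPM (counts scaled to a common library size) in culture and 501 to 1630 CPM in tumors, and 2 of the 5 macrophage markers were at 0 in all D2A1 cultures. Mammary epithelial markers (Krt8, Krt18, Krt14, Epcam) summed to 2454 to 4834 CPM in D2.1 culture and 141 to 357 CPM in D2A1 culture. The library of D2.1 BALB/c replicate 1 was the only one with over 1 CPM of milk protein genes (329 CPM), and it had the highest sums of adipocyte and muscle markers (389 and 324 CPM). Nothing in the labels says whether culture replicates were separate cultures, so p-values measure the spread between these libraries, which may be technical in culture.

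An aminoacyl-tRNA synthetase joins an amino acid to its tRNA, the step that sets which amino acid a codon receives. The cytosolic enzymes serve translation on cytosolic ribosomes, and 8 of them (Eprs, Iars, Lars, Mars, Qars, Kars, Rars and Dars) sit in the multisynthetase complex with scaffold proteins. The mitochondrial enzymes are encoded in the nucleus, are imported, and charge the tRNAs that read the few messages of the mitochondrial genome, all of which encode parts of the oxidative phosphorylation system. Kars and Gars each encode the enzyme of both compartments, and Eprs carries glutamyl and prolyl activities in 1 protein. Several cytosolic members are known targets of Atf4, the transcription factor of the integrated stress response, and WARS is known as an interferon gamma induced gene.

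RefSeq promoter windows on GRCm38.p6, from 250 bases before to 50 bases after the annotated start, were found for 27 of the 36 members (13 cytosolic and 14 mitochondrial). No window was matched for Cars, Hars, Lars, Nars, Rars, Vars, Wars, Hars2 and Pars2. The motifs searched on both strands were the C/EBP-ATF response element in the forms TGATGNAAN and ATTGCATCA, which overlap since the reverse complement of the latter is a case of the former, the E box CACGTG bound by Myc and related factors, the core GCATGCGC of the NRF1 motif, and the ETS motif CCGGAAGT. The form TGATGNAAN was in the windows of 5 of 13 cytosolic members (Aars, Gars, Iars, Tars and Yars), 0 of 14 mitochondrial members and 4.50% of 27025 genes with a window. ATTGCATCA was in Aars and Iars and in 0.222% of genes. The E box was in 4 cytosolic members (Aars, Farsb, Iars and Tars) and 1 mitochondrial member (Ears2), and in 8.09% of genes. The NRF1 core was in 0 cytosolic and 3 mitochondrial members (Rars2, Vars2 and Wars2) and in 3.05% of genes, and the ETS motif was in Farsa, Mars and Rars2 and in 4.31% of genes. These matches describe letters in the windows and are not evidence of binding. The windows of 5 members are shown from 150 bases before to 30 bases after the start, on the strand of the gene, with every match to a searched motif in capitals, because they hold most of the matches and belong to genes named below.
Aars, chr8:111033692-111033871, plus strand: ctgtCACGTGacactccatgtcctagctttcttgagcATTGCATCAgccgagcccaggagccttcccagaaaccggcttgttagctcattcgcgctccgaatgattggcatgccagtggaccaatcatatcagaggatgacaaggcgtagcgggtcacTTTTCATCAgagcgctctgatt
Iars, chr13:49681980-49682159, plus strand: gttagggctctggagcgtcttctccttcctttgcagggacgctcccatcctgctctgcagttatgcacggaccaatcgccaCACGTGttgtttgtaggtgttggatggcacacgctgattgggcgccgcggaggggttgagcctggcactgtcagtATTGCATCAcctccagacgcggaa
Tars, chr15:11399629-11399808, minus strand: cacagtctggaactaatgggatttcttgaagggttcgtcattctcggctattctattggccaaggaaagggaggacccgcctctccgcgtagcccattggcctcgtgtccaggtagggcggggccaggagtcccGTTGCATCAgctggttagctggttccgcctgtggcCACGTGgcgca
Rars2, chr4:34614807-34614986, plus strand: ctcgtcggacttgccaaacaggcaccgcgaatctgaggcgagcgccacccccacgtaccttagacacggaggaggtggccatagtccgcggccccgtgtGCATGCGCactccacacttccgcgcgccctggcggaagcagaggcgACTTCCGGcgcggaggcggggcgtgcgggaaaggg
Vars2, chr17:35667563-35667742, minus strand: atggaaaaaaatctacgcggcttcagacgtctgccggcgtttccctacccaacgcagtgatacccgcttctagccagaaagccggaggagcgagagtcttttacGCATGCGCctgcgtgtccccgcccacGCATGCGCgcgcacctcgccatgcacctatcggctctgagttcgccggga
In Aars the E box begins 146 bases before the start, and in Iars ATTGCATCA begins at base 7 after it. Rars2 holds 1 NRF1 core, at 51 bases before the start, and Vars2 holds 2, at 46 and 20 bases before it.

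The median cytosolic member stood above the median mitochondrial member in all 6 groups. On the scale of CPM per kilobase of GENCODE exon, the cytosolic median was 26.8 (D2.1 BALB/c) to 54.4 (D2A1 culture) and the mitochondrial median was 3.90 (D2.1 BALB/c) to 5.44 (D2A1 culture). The order of single genes depends on the gene lengths used. Vars, Gars, Kars, Nars and Sars, for valine, glycine, lysine, asparagine and serine, had the 5 highest means in culture of either line on this scale. By deposited FPKM, Lars2 ranked 4 and Sars 6 in D2.1 culture. In D2A1 culture Vars was at 147 ± 26.5 and Gars at 145 ± 7.14 CPM per kb (SD, n = 3), which differed by less than their spread. In D2A1 SCID-beige tumors Sars led with 119 ± 28.6 CPM per kb (SD, n = 5), against 113 ± 23.6 for Gars, again within the spread. At the low end Ears2, for glutamate, was at 1.93 ± 0.457 CPM per kb in D2A1 culture, and Nars2, for asparagine, at 0.702 ± 0.191 in D2.1 BALB/c tumors (SD, n = 4). By deposited FPKM the lowest member in D2.1 BALB/c tumors was Mars2, at 1.14 ± 0.520.

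Lars2, for mitochondrial leucine, had the highest mean level of the mitochondrial members per length in 5 of the 6 groups and a wide spread between replicates. In D2A1 BALB/c tumors Rars2 was at 25.1 ± 5.86 and Lars2 at 22.5 ± 7.90 CPM per kb (SD, n = 4), within their spread. Lars2 had values of 465, 770.4 and 354 CPM in D2.1 culture and 298, 796 and 344 CPM in D2A1 culture. Among tumors it ranged from 251 to 493 in D2.1 BALB/c, 153 to 333 in D2A1 BALB/c, 146 to 493 in D2.1 SCID-beige and 238 to 707 CPM in D2A1 SCID-beige. It took 11.7% to 46.5% of the summed mitochondrial level of a library, so sums of the class moved with this 1 gene. The summed level of the 15 other mitochondrial members varied far less between replicates. It was 78.8 ± 1.68 CPM per kb in D2.1 culture and 124 ± 7.29 in D2A1 culture (SD, n = 3), 59.6 ± 3.82 and 107 ± 4.95 in BALB/c tumors (n = 4), and 67.6 ± 5.25 and 104 ± 4.48 in SCID-beige tumors (n = 5). In each setting every D2.1 library was below every D2A1 library.

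The summed cytosolic level was 1047 ± 168 CPM per kb in D2.1 culture and 1274 ± 79.6 in D2A1 culture, 588 ± 39.4 and 887 ± 44.8 in BALB/c tumors, and 728 ± 88.6 and 866 ± 96.9 in SCID-beige tumors, and the lines overlapped in culture and in SCID-beige tumors. With Lars2 left out, a choice made after the values were seen, the summed cytosolic level was 13.3 ± 1.87 times the mitochondrial one in D2.1 culture and 10.3 ± 0.0426 times in D2A1 culture. The ratio was 9.88 ± 0.644 and 8.28 ± 0.493 in BALB/c tumors and 10.8 ± 0.865 and 8.35 ± 1.15 in SCID-beige tumors, so the D2.1 libraries had the higher ratio in each setting, with overlap between the lines in SCID-beige tumors. With Lars2 kept, the ratios on this scale were 8.28 ± 0.444 and 7.73 ± 0.984 in culture, 6.65 ± 0.519 and 6.87 ± 0.506 in BALB/c tumors and 7.55 ± 1.03 and 6.18 ± 1.30 in SCID-beige tumors for D2.1 and D2A1, and the lines overlapped in each setting. The deposited FPKM, also with Lars2, gave ratios of 6.20 ± 0.510 and 6.34 ± 1.18 in culture, 4.75 ± 0.525 and 5.24 ± 0.514 in BALB/c tumors, and 5.48 ± 0.983 and 4.53 ± 1.08 in SCID-beige tumors, again with overlap, so the order of the lines in culture and BALB/c tumors was not the same under all these choices. FPKM of the culture and tumor tables were not set against each other, since 32 of the 36 members had a longer gene length in the culture table, by up to 2.98 times.

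In culture, several mitochondrial synthetases were at a lower level in D2.1 than in D2A1 cells and none was called higher. By edgeR's quasi-likelihood test, with p-values adjusted over all genes by Benjamini and Hochberg, 9 of 16 mitochondrial members were lower in D2.1 and 0 were higher, with a median log2 fold change of -0.56. Of 20 cytosolic members 5 were lower and 3 higher, with a median of -0.26. Over the 12489 genes tested, 20.7% were called lower and 24.2% higher, and the median was -0.02. The members called lower were Dars, Eprs, Farsb, Lars and Wars in the cytosol and Cars2, Iars2, Mars2, Nars2, Pars2, Rars2, Tars2, Vars2 and Yars2 in the mitochondrion, and those called higher were Mars, Qars and Tars.

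Mars2, the mitochondrial enzyme for methionine, differed most among the mitochondrial members. Its values were 16.3, 14.5 and 25.3 CPM in D2.1 and 59.1, 56.7 and 62.1 CPM in D2A1 culture (log2 fold change -1.64 ± 0.21, adjusted p = 0.00029; here and below ± after a log2 fold change is its standard error). All D2.1 libraries lay below all D2A1 libraries. Iars2, for isoleucine, stood at 89.1, 88.8 and 91.8 CPM in D2.1 and 211.6, 208 and 229.6 CPM in D2A1, with no overlap (log2 fold change -1.24 ± 0.11, adjusted p = 2.9e-05). Iars2 shares 22.9% of its exon bases with Rab3gap2 on the opposite strand, and the strand setting of the counting is not given in the sources used here. Other members that share over 5% of their exon bases with a neighbor are Aars (14.3%, Exosc6), Fars2 (10.7%, Lyrm4 and Nrn1), Hars (7.97%, Hars2), Farsb (9.47%, Sgpp2) and Cars2 (5.83%, Naxd), and Mars shares 1.99% with Ddit3. Pars2, for proline, was low in both lines, with 3.38, 4.12 and 4.36 CPM in D2.1 and 6.997, 9.18 and 7.95 CPM in D2A1 (log2 fold change -0.99 ± 0.22, adjusted p = 0.0056).

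Among cytosolic members the largest differences were those of Dars, Farsb and Eprs. Dars, for aspartate, had 108, 108 and 94.6 CPM in D2.1 and 216.2, 217.2 and 189.7 CPM in D2A1 (log2 fold change -0.97 ± 0.13, adjusted p = 0.00034). Farsb, the beta subunit of the phenylalanine enzyme, had 93.3, 92.8 and 71.2 CPM and 162, 158 and 151 CPM (log2 fold change -0.84 ± 0.14, adjusted p = 0.0014). Neither gene overlapped between the lines. The alpha subunit of that enzyme, Farsa, was not called in the main fit and was called with the replicate as a block. It had 198, 184 and 164 CPM in D2.1 and 258, 255 and 179.9 CPM in D2A1 (log2 fold change -0.32 ± 0.17, adjusted p = 0.17, with the block adjusted p = 0.015). Eprs had 265, 318 and 278 CPM in D2.1 and 497, 487 and 509 CPM in D2A1 (log2 fold change -0.77 ± 0.13, adjusted p = 0.0013). In the opposite direction, Tars, for threonine, had 212.2, 218.7 and 164 CPM in D2.1 and 132, 139 and 136 CPM in D2A1 (log2 fold change 0.58 ± 0.14, adjusted p = 0.0093).

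In an alternative fit, culture libraries of the same replicate number were treated as pairs, although no label states such a pairing. With the replicate as a block 11 cytosolic members were lower and 3 higher, against 5 and 3 without it, while 10 mitochondrial members were lower. The members gained were Farsa, Gars, Iars, Kars, Nars, Vars and Ears2. Leaving out 1 library left 4 to 8 cytosolic and 6 to 10 mitochondrial calls, and Dars, Eprs, Farsb, Tars, Iars2, Mars2, Pars2, Rars2, Tars2 and Vars2 were called in all 6 of these fits. With each library's slope of expression on gene GC content as a covariate, 3 cytosolic and 5 mitochondrial members were lower and 0 were higher. The count of cytosolic calls was lowest, at 4, without D2.1 replicate 1, D2A1 replicate 1 or D2A1 replicate 2.

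**Figure D1:**
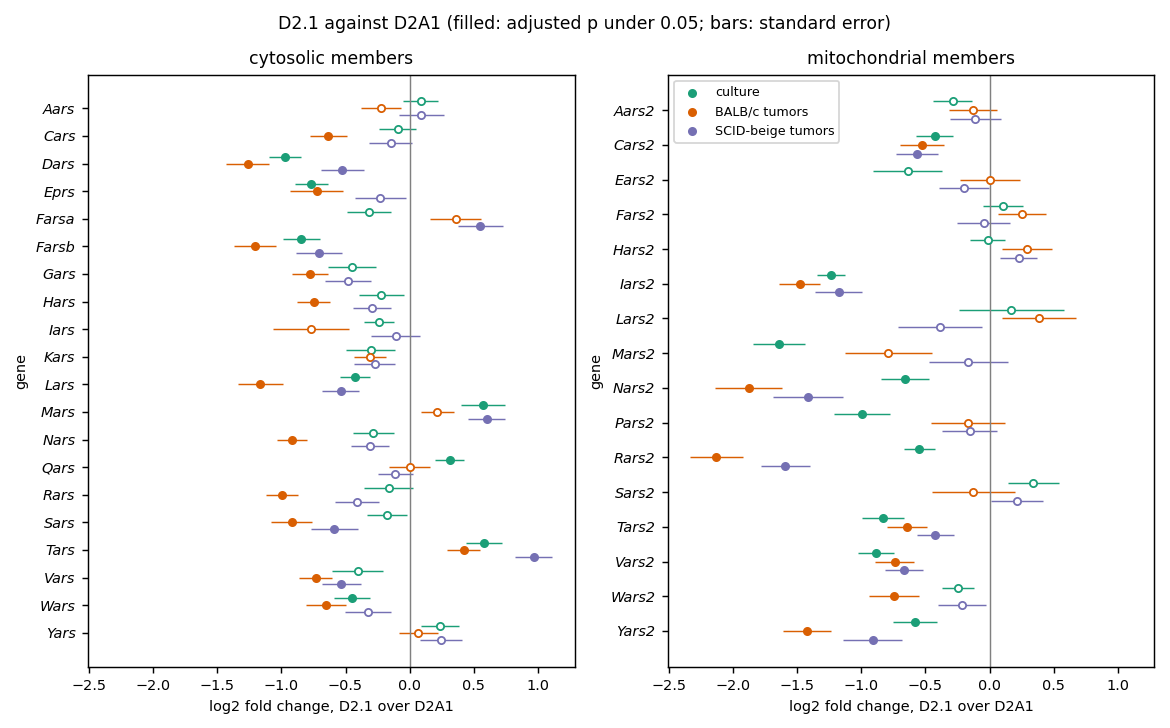
Log2 fold change of D2.1 over D2A1 (x axis) for each cytosolic (left) and mitochondrial (right) member (y axis) in culture, BALB/c tumors and SCID-beige tumors, with the standard error as a bar. Filled points passed an adjusted p of 0.05, and most filled points lie left of 0, with Tars to the right of 0 in all 3 comparisons.

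In BALB/c tumors, most cytosolic and some mitochondrial members were lower in D2.1. Of 20 cytosolic members 12 were called lower in D2.1 and 1 higher (Tars), with a median log2 fold change of -0.73, and of 16 mitochondrial members 8 were lower and 0 higher, with a median of -0.59. Over the 14953 genes tested, 15.8% were called lower and 16.8% higher, with a median of -0.02. The cytosolic members called lower were Cars, Dars, Eprs, Farsb, Gars, Hars, Lars, Nars, Rars, Sars, Vars and Wars, of which 4 belong to the multisynthetase complex and 8 do not. The mitochondrial ones were Cars2, Iars2, Nars2, Rars2, Tars2, Vars2, Wars2 and Yars2. An alternative fit treated tumors of the same replicate number as pairs, although each library is a different tumor and no label states a pairing. With the block 14 cytosolic members were lower and 2 higher and 9 mitochondrial members were lower and 1 higher. Iars, Kars and Mars2 were gained as lower and Farsa and Lars2 as higher.

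Rars2, the mitochondrial arginine enzyme, had the largest difference of all members. Its values were 12.9, 18.8, 15.5 and 15.98 CPM in D2.1 tumors and 65.0, 59.4, 59.9 and 93.5 CPM in D2A1 tumors (log2 fold change -2.13 ± 0.20, adjusted p = 3.5e-05). The highest D2.1 tumor was thus far below the lowest D2A1 tumor. Nars2 had 3.59, 5.91, 3.91 and 6.15 CPM in D2.1 and 19.5, 19.2, 13.8 and 19.7 CPM in D2A1 (log2 fold change -1.88 ± 0.26, adjusted p = 0.00036). Iars2 had 48.2, 42.6, 35.7 and 37.7 CPM and 121, 131, 109 and 99.8 CPM (log2 fold change -1.48 ± 0.16, adjusted p = 7.6e-05), and none of these 3 genes overlapped between the lines.

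The cytosolic members with the largest differences were Dars, Farsb and Lars. Dars had 45.9, 51.4, 32.8 and 48.4 CPM in D2.1 and 114, 105, 101 and 109.9 CPM in D2A1 tumors (log2 fold change -1.26 ± 0.17, adjusted p = 0.00029). Farsb had 39.3, 35.2, 40.6 and 54.2 CPM and 92.0, 102, 95.6 and 103 CPM (log2 fold change -1.21 ± 0.17, adjusted p = 0.00035). Lars, for leucine in the cytosol, had 63.5, 76.2, 56.9 and 51.6 CPM and 146, 169, 124 and 119.9 CPM (log2 fold change -1.17 ± 0.18, adjusted p = 0.00065), and again no D2.1 tumor reached the lowest D2A1 tumor.

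Sums of several marker lists also differed between these tumors. Summed T cell markers were 62.8 to 165 CPM in D2.1 and 6.15 to 19.4 CPM in D2A1 tumors, fibroblast markers 4347 to 7159 and 915 to 1670 CPM, endothelial markers 65.5 to 112 and 168 to 227 CPM, and proliferation genes 530 to 744 and 685 to 1026 CPM. Fibroblast markers were also at 1879 to 2770 CPM in D2.1 culture and 83.7 to 104 CPM in D2A1 culture, where no host cells are present. Their sum in tumors is therefore not a measure of host cells alone. The part of these marker differences in those of the synthetases was not tested. Leaving out each tumor in turn left 11 to 14 cytosolic and 7 to 8 mitochondrial calls, and the calls lost were those of Eprs, Tars and Cars2. A fit with both the replicate as a block and the GC slope, which had 2 residual degrees of freedom, called 1 cytosolic member (Farsb) and 1 mitochondrial member (Iars2), and 545 genes in place of 4868. The medians in that fit were -0.62 and -0.38.

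In SCID-beige tumors, 7 of 16 mitochondrial members were lower in D2.1 and 0 higher, with a median log2 fold change of -0.30, and 5 of 20 cytosolic members were lower and 3 higher, with a median of -0.28. Over the 14355 genes tested, 14.8% were called lower and 17.2% higher, with a median of 0.02. Dars, Farsb, Lars, Sars and Vars were the cytosolic members called lower, Farsa, Mars and Tars those called higher, and Cars2, Iars2, Nars2, Rars2, Tars2, Vars2 and Yars2 the mitochondrial members called lower.

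The mitochondrial members with the largest differences were the same 3 genes as in BALB/c. Rars2 had 25.6, 15.4, 19.6, 23.5 and 15.9 CPM in D2.1 and 50.8, 50.01, 74.0, 67.9 and 59.6 CPM in D2A1 tumors (log2 fold change -1.59 ± 0.19, adjusted p = 2.9e-05). Nars2 had 4.75, 5.25, 9.11, 5.94 and 5.04 CPM and 10.8, 12.4, 14.9, 24.2 and 18.3 CPM (log2 fold change -1.42 ± 0.28, adjusted p = 0.0014). Iars2 had 42.5, 46.4, 49.1, 70.8 and 48.7 CPM and 105, 88.7, 122, 113 and 154 CPM (log2 fold change -1.18 ± 0.18, adjusted p = 0.00028). None of the 3 overlapped between the lines.

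Among cytosolic members Tars was higher in D2.1 and had the largest difference. It stood at 167, 143, 189.6, 144 and 148 CPM in D2.1 and 93.6, 91.4, 68.0, 75.0 and 77.5 CPM in D2A1 tumors (log2 fold change 0.97 ± 0.15, adjusted p = 0.00023). Mars, for methionine, had 135, 119, 118, 163 and 129 CPM in D2.1 and 103, 87.9, 71.9, 86.6 and 88.3 CPM in D2A1 (log2 fold change 0.60 ± 0.15, adjusted p = 0.0069). Both genes were above all D2A1 tumors in every D2.1 tumor. Farsb was lower in D2.1, with 51.5, 45.4, 46.8, 77.7 and 43.2 CPM against 83.0, 85.7, 97.7, 73.1 and 93.3 CPM (log2 fold change -0.71 ± 0.18, adjusted p = 0.0075), and the groups overlapped through D2.1 replicate 4.

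Marker sums also differed here, with T cell markers at 8.11 to 20.3 CPM in D2.1 and 0.995 to 3.57 CPM in D2A1 tumors, fibroblast markers at 3180 to 6442 and 784 to 1874 CPM, and endothelial markers at 44.7 to 74.3 and 150.4 to 225 CPM. These hosts lack T cells, so the T cell sum cannot be read as a measure of T cells. Fibroblast markers also differed between the lines in culture, where no host cells are present. The part of these markers in the differences of the synthetases was not tested. Leaving out each tumor left 6 to 10 cytosolic and 6 to 7 mitochondrial calls, and the block together with the GC slope (3 residual degrees of freedom) left 2 cytosolic calls, Mars and Tars, and 3 mitochondrial calls, Iars2, Nars2 and Rars2.

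In all, 10 members were called lower in D2.1 in all 3 line comparisons, namely the cytosolic Dars, Farsb and Lars and the mitochondrial Cars2, Iars2, Nars2, Rars2, Tars2, Vars2 and Yars2. That is 3 of 20 cytosolic and 7 of 16 mitochondrial members, where 6.23% of the 11936 genes tested in all 3 were called lower each time. Tars was the only member called higher in all 3, as were 8.65% of genes. In BALB/c tumors, where Tars had 114, 122, 118 and 140.2 CPM in D2.1 and 92.0, 88.5, 93.1 and 97.5 CPM in D2A1 (log2 fold change 0.42 ± 0.13, adjusted p = 0.029), its call was lost on omission of a single tumor in 6 of 8 cases (without D2.1 replicate 3 or 4 or any D2A1 tumor). The 3 comparisons use different libraries, but the same 2 lines. By fitted sign alone, 14 cytosolic and 11 mitochondrial members were below 0 in all 3, and 3 cytosolic (Mars, Tars and Yars) and 0 mitochondrial members were above 0 in all 3. Of all genes, 51.1%, 51.1% and 49.0% were below 0 in culture, BALB/c and SCID-beige tumors. The share of all genes below 0 in all 3 was not computed, so these sign counts are descriptive. The call of Cars2 was lost in BALB/c without D2.1 replicate 1, 2 or 3 or any D2A1 tumor. In culture it was lost without any D2.1 library or without D2A1 replicate 1 or 2. With the GC slope alone, 6 members (Dars, Farsb, Iars2, Tars2, Vars2 and Yars2) were called lower in all 3, and 0 were called higher. With the block and the GC slope, 1 member, Iars2, was called lower in all 3.

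**Figure D2:**
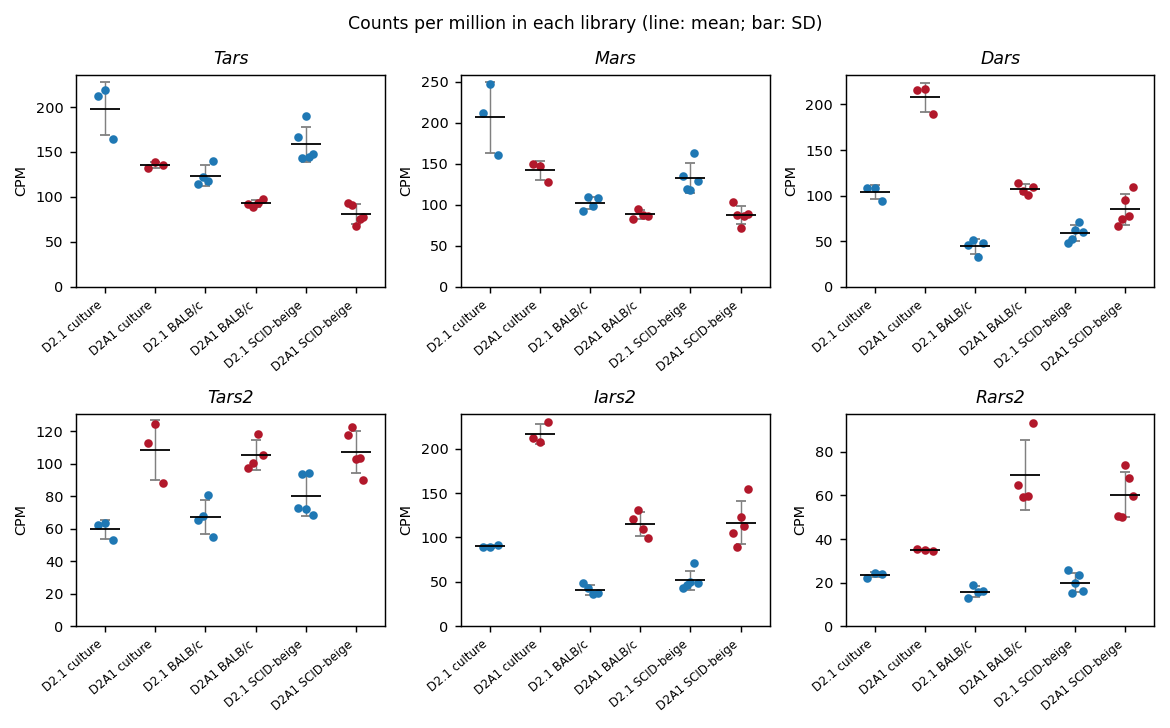
CPM in each library (y axis, linear from 0) of 3 cytosolic (top) and 3 mitochondrial (bottom) members in the 6 groups (x axis), D2.1 in blue and D2A1 in red, with the mean as a line and the SD as a bar. Tars and Mars have their higher means in D2.1 and the other 4 genes in D2A1, and Rars2 in D2A1 reaches 93.5 CPM in a BALB/c tumor against 34.6 to 35.5 CPM in culture.

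The cytosolic and mitochondrial enzymes of 1 amino acid could be compared within a library for 13 amino acids, as a ratio of CPM per kb that does not depend on library scaling. Threonine showed opposite directions for its 2 enzymes. The ratio of Tars to Tars2 was 3.89 ± 0.218 (range 3.64 to 4.04) in D2.1 culture and 1.502 ± 0.275 (range 1.31 to 1.82) in D2A1 culture (SD, n = 3). It was 2.23 ± 0.551 (range 1.73 to 3.01) and 1.04 ± 0.0836 (range 0.924 to 1.11) in BALB/c tumors (n = 4), and 2.39 ± 0.573 (range 1.80 to 3.10) and 0.890 ± 0.0880 (range 0.777 to 1.011) in SCID-beige tumors (n = 5). The ratio was higher in every D2.1 library than in any D2A1 library of the same setting. Tars2 itself was lower in D2.1, with 62.5, 63.6 and 52.9 CPM against 113, 124 and 87.8 CPM in culture (log2 fold change -0.83 ± 0.16, adjusted p = 0.0033).

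Isoleucine, asparagine and tyrosine had the same pattern of ratios without overlap in the 3 settings. Of the 13 ratios, 8 were higher and 1 lower in D2.1 without overlap in culture. In BALB/c tumors 5 were higher and 2 lower, and in SCID-beige tumors 5 were higher and 1 lower. Alanine, cysteine and valine separated the lines in culture only. No share over other pairs of genes is given, so these counts are descriptive. For isoleucine the ratio of Iars to Iars2 was 4.08 ± 0.897 (range 2.98 to 5.15) in D2.1 and 1.91 ± 0.231 (range 1.56 to 2.20) in D2A1 SCID-beige tumors. For tyrosine the ratio of Yars to Yars2 was 4.31 ± 0.297 (range 4.16 to 4.76) in D2.1 and 1.57 ± 0.313 (range 1.24 to 1.98) in D2A1 BALB/c tumors. Arginine separated the lines in tumors, where Rars to Rars2 stood at 4.96 ± 0.504 (range 4.53 to 5.67) and 2.30 ± 0.388 (range 1.78 to 2.71) in BALB/c, but not in culture, where it was 8.35 ± 1.95 (range 6.24 to 10.1) and 6.41 ± 0.540 (range 5.78 to 6.73). Methionine separated them in culture, with Mars to Mars2 at 40.1 ± 17.9 (range 20.9 to 56.4) in D2.1 and 7.93 ± 0.963 (range 6.82 to 8.57) in D2A1, and overlapped in both kinds of tumor. Serine, histidine and leucine went the other way in part. Sars to Sars2 was lower in D2.1 in culture, at 15.2 ± 1.88 (range 13.2 to 16.8) against 22.8 ± 5.76 (range 17.7 to 29.0), and in SCID-beige tumors, at 20.7 ± 3.21 (range 15.3 to 23.8) against 35.7 ± 7.95 (range 24.0 to 44.1). Lars to Lars2 was lower in D2.1 BALB/c tumors, at 0.436 ± 0.175 (range 0.216 to 0.627) against 1.32 ± 0.634 (range 0.768 to 1.97), and overlapped in the other settings. Hars to Hars2 was lower in D2.1 BALB/c tumors, at 3.80 ± 1.012 (range 2.91 to 5.20) against 7.47 ± 0.582 (range 6.95 to 8.30).

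**Figure D3:**
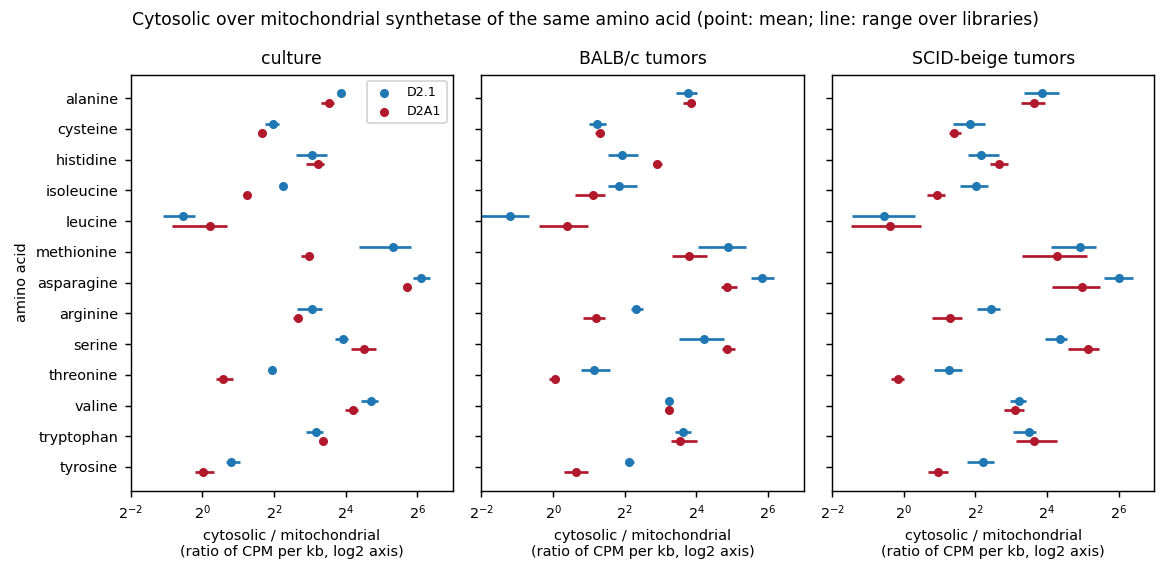
Ratio of the cytosolic to the mitochondrial synthetase of the same amino acid (x axis, CPM per kb, log2 axis) for 13 amino acids (y axis) in culture, BALB/c tumors and SCID-beige tumors, as the mean (point) and range over libraries (line). The D2.1 range lies right of the D2A1 range for isoleucine, asparagine, threonine and tyrosine in all 3 panels.

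No member was called between hosts by edgeR. In D2.1 tumors, BALB/c against SCID-beige, 0 of 36 members were called where 0.891% of 14929 genes were, with edgeR, and 7 cytosolic and 0 mitochondrial members had an unadjusted p under 0.05, as did 9.97% of all genes. DESeq2 called 1, Sars, for serine (adjusted p = 0.042). Sars had the lowest p in edgeR as well, with 241, 276, 298 and 303 CPM in BALB/c and 493, 403, 347, 452 and 341 CPM in SCID-beige tumors (log2 fold change -0.51 ± 0.16, adjusted p = 0.21), and its groups did not overlap. Fitted values were below 0 for 18 of 20 cytosolic and 12 of 16 mitochondrial members, and for 51.2% of all genes, with medians of -0.33 and -0.22 for the members. The mitochondrial member with the lowest p was Iars2, with 48.2, 42.6, 35.7 and 37.7 CPM and 42.5, 46.4, 49.1, 70.8 and 48.7 CPM (log2 fold change -0.30 ± 0.19, adjusted p = 0.7).

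In D2A1 tumors 0 of 36 members were called, against 1.17% of 14572 genes, and 0 cytosolic and 1 mitochondrial member had an unadjusted p under 0.05, as did 10.1% of all genes. DESeq2 called 0 members. The medians were 0.08 for cytosolic and 0.02 for mitochondrial members. Dars had 114, 105, 101 and 109.9 CPM in BALB/c and 66.7, 74.7, 94.9, 78.2 and 109.8 CPM in SCID-beige tumors (log2 fold change 0.34 ± 0.16, adjusted p = 0.5), and Lars2 had 153, 199, 333 and 314 CPM and 263, 538, 707, 428 and 238 CPM (log2 fold change -0.80 ± 0.34, adjusted p = 0.43). The difference of the host effects between the lines was called for 0 members and for 0.0187% of 16036 genes. Its cytosolic median was -0.42, against -0.06 over all genes, with 19 of 20 members below 0 and 8 at an unadjusted p under 0.05, where 55.3% of all genes were below 0 and 8.45% were at such a p. Its mitochondrial median was -0.15, with 1 at an unadjusted p under 0.05. The lowest adjusted p of a cytosolic member in it was that of Nars, for cytosolic asparagine (log2 fold change -0.61 ± 0.18, adjusted p = 0.33), which had 161, 172, 156 and 182 CPM in D2.1 and 318, 316, 307 and 334 CPM in D2A1 BALB/c tumors, and 253, 182, 273, 269 and 193 and 300.1, 299, 291, 268 and 295 CPM in SCID-beige tumors. Wars2, for mitochondrial tryptophan, had the lowest p among mitochondrial members (log2 fold change -0.54 ± 0.25, adjusted p = 0.57), with 9.76, 13.7, 12.1 and 14.4 CPM in D2.1 and 21.9, 22.8, 21.6 and 17.7 CPM in D2A1 BALB/c tumors.

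Between tumors and culture, the cytosolic members called by the main edgeR fit were all lower in tumors. In D2A1, alternative fits also called some higher, 2 with the replicate block and 1 with library totals. In D2.1, SCID-beige tumors against culture, 11 of 20 cytosolic members were lower and 0 higher, with a median log2 fold change of -0.61, and 5 of 16 mitochondrial members were lower and 1 higher, with a median of -0.27. Over the 14111 genes tested, 22.3% were called lower and 30.8% higher, with a median of 0.09. In D2A1 14 cytosolic members were lower and 0 higher, with a median of -0.71, and 5 mitochondrial members were lower and 2 higher, with a median of -0.09, where 24.5% of 13869 genes were lower and 33.6% higher, with a median of 0.10. Culture and tumors come from separate tables, made with different gene lengths, so tissue and table cannot be told apart. Host cells also enter the tumor libraries only, and proliferation genes (Mki67, Top2a, Pcna and Mcm2) summed to 1431 to 1877 CPM in D2.1 culture and 495 to 785 CPM in D2.1 SCID-beige tumors, and to 2046 to 2105 and 586.3 to 819 CPM for D2A1. Their part in these differences was not tested.

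Called lower in tumors of both lines were 11 cytosolic members (Aars, Dars, Eprs, Farsb, Hars, Iars, Lars, Mars, Nars, Rars and Vars) and 4 mitochondrial members (Aars2, Iars2, Wars2 and Yars2), where 15.6% of the 13265 genes tested in both were lower each time. The 2 comparisons use different libraries. Of the 8 synthetases of the multisynthetase complex 6 were lower in D2.1 tumors and 7 in D2A1 tumors, with medians of -0.76 and -0.74. Of the 12 other cytosolic members 5 and 7 were lower, with medians of -0.38 and -0.68.

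Iars, for cytosolic isoleucine, was among the cytosolic members with the largest fall in each line. It fell from 251, 264 and 245 CPM in culture to 105, 93.1, 150.2, 125 and 136 CPM in tumors of D2.1 (log2 fold change -1.08 ± 0.18, adjusted p = 0.00047), and from 291, 287 and 337 to 96.8, 104, 137, 148 and 175 CPM in D2A1 (log2 fold change -1.23 ± 0.19, adjusted p = 0.00024). In both lines all tumors were below all cultures. Vars fell in D2.1 from 625, 706 and 496 to 319, 271, 271, 374 and 247 CPM (log2 fold change -1.07 ± 0.18, adjusted p = 0.00051). Rars fell from 226, 287 and 174 to 123, 96.6, 127, 176 and 102 CPM in D2.1 (log2 fold change -0.91 ± 0.22, adjusted p = 0.0056), where the highest tumor overlapped the lowest culture. In D2A1 Dars fell from 216.2, 217.2 and 189.7 to 66.7, 74.7, 94.9, 78.2 and 109.8 CPM (log2 fold change -1.32 ± 0.17, adjusted p = 6.9e-05). Eprs fell in D2A1 from 497, 487 and 509 to 208, 163, 244, 229 and 329 CPM (log2 fold change -1.11 ± 0.20, adjusted p = 0.00059), again without overlap.

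Yars2, for mitochondrial tyrosine, fell in both lines. It had 48.4, 43.3 and 39.8 CPM in D2.1 culture and 16.002, 10.0, 18.2, 21.7 and 10.8 CPM in D2.1 tumors (log2 fold change -1.54 ± 0.26, adjusted p = 0.00048), and 76.4, 70.8 and 53.2 and 26.4, 36.8, 27.2, 27.2 and 27.2 CPM in D2A1 (log2 fold change -1.24 ± 0.18, adjusted p = 0.00013). Iars2 fell as well, from 88.8 to 91.8 CPM in the 3 D2.1 cultures to 42.5, 46.4, 49.1, 70.8 and 48.7 CPM in tumors (log2 fold change -0.83 ± 0.18, adjusted p = 0.0026), and in D2A1 from 211.6, 208 and 229.6 to 105, 88.7, 122, 113 and 154 CPM (log2 fold change -0.92 ± 0.17, adjusted p = 0.00088). Other mitochondrial members rose. Pars2 rose in D2.1 from 3.38, 4.12 and 4.36 to 11.6, 7.998, 8.998, 7.99 and 7.77 CPM (log2 fold change 1.13 ± 0.27, adjusted p = 0.0044), and Rars2 and Fars2 rose in D2A1 (log2 fold change 0.76 ± 0.18, adjusted p = 0.0037; log2 fold change 0.55 ± 0.22, adjusted p = 0.049). With 1 library left out at a time, Fars2 was called in 2 of 8 fits, and its adjusted p was 0.062 to 0.14 when culture replicate 1, 2 or 3 or tumor replicate 1, 2 or 3 was omitted. Mars2 fell in D2A1 from 59.1, 56.7 and 62.1 to 9.80, 12.9, 16.2, 19.4 and 29.8 CPM (log2 fold change -1.78 ± 0.29, adjusted p = 0.00031), the largest fall of any member in that comparison.

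For D2.1 the calls depended on culture replicate 2, without which 6 cytosolic members (Aars, Dars, Iars, Lars, Rars and Vars) and 3 mitochondrial members (Iars2, Pars2 and Yars2) were called. With counts scaled by library totals alone in D2.1, the median gene moved by 0.15 on the log2 scale and the mitochondrial members were split into 4 higher and 2 lower, while 10 cytosolic members were lower and 0 higher. For D2A1, each library left out left 13 to 16 cytosolic and 5 to 7 mitochondrial calls, and library totals gave 1 cytosolic member higher and 14 lower. With the replicate as a block, an alternative that treated cultures and tumors of the same number as pairs, Qars and Sars were called higher in D2A1 tumors (log2 fold change 0.41 and 0.40). No label links a culture to a tumor.

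**Figure D4:**
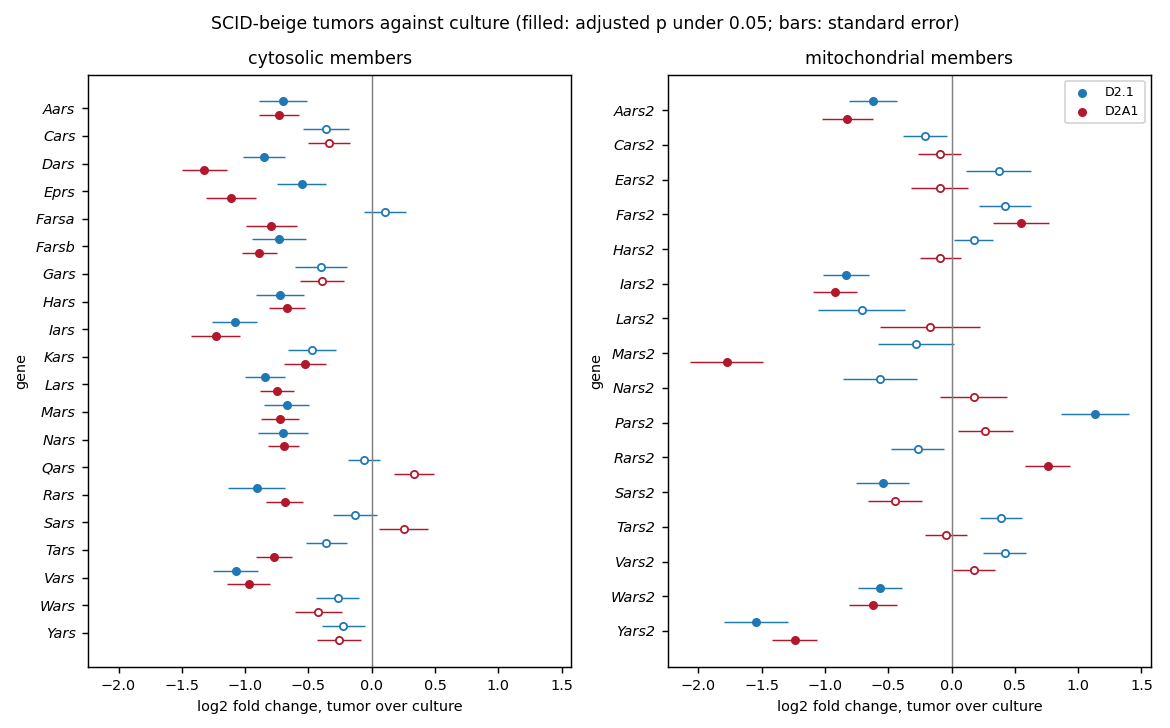
Log2 fold change of SCID-beige tumors over culture (x axis) for each cytosolic (left) and mitochondrial (right) member (y axis) in D2.1 and D2A1, with the standard error as a bar; filled points passed an adjusted p of 0.05. Filled cytosolic points all lie left of 0, while filled mitochondrial points lie on both sides.

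The change from culture to SCID-beige tumor differed between the lines for 3 members by the interaction test, 1 of 20 cytosolic (Farsa) and 2 of 16 mitochondrial (Mars2 and Rars2), where 12.8% of 15077 genes were called. Rars2 was at 22.2, 24.5 and 23.9 CPM in D2.1 culture and 25.6, 15.4, 19.6, 23.5 and 15.9 CPM in D2.1 tumors, and at 35.5, 35.1 and 34.6 and 50.8, 50.01, 74.0, 67.9 and 59.6 CPM in D2A1, so it rose in D2A1 and was not called in D2.1 (difference of log2 fold changes -1.04, edgeR adjusted p = 0.015). Mars2 was at 16.3, 14.5 and 25.3 CPM in D2.1 culture and 12.2, 11.5, 16.6, 13.0 and 24.7 CPM in D2.1 tumors, and the fall in D2A1 exceeded the change in D2.1 by 1.48 ± 0.44 (SE) on the log2 scale (edgeR adjusted p = 0.033). Farsa had 258, 255 and 179.9 CPM in D2A1 culture and 155, 184, 116, 120.0 and 107 CPM in D2A1 tumors, against 198, 184 and 164 and 234, 213.4, 213.5, 187 and 152 CPM in D2.1, a difference of 0.89 ± 0.27 (edgeR adjusted p = 0.037). Rars2 was called on omission of any of the 16 libraries. Mars2 was not called by edgeR without D2.1 culture replicate 1 (0.094), D2.1 culture replicate 2 (0.11), D2A1 culture replicate 1 (0.068), D2A1 culture replicate 2 (0.062), D2A1 culture replicate 3 (0.067), D2.1 SCID-beige replicate 5 (0.058), D2A1 SCID-beige replicate 2 (0.052) and D2A1 SCID-beige replicate 3 (0.053), the adjusted p in brackets, and Farsa was not called without D2.1 culture replicate 1 (0.056), D2.1 culture replicate 2 (0.078), D2.1 culture replicate 3 (0.096), D2A1 culture replicate 1 (0.11), D2A1 culture replicate 2 (0.11), D2.1 SCID-beige replicate 1 (0.063), D2.1 SCID-beige replicate 2 (0.053), D2.1 SCID-beige replicate 3 (0.053), D2A1 SCID-beige replicate 3 (0.063), D2A1 SCID-beige replicate 4 (0.063) and D2A1 SCID-beige replicate 5 (0.052).

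Wars, the cytosolic tryptophan enzyme, was not called between hosts. It had 81.8, 106, 74.8 and 91.6 CPM in D2.1 BALB/c and 118, 88.4, 84.0, 108 and 90.6 CPM in D2.1 SCID-beige tumors (log2 fold change -0.11 ± 0.16, adjusted p = 0.91, 95% interval of the log2 fold change -0.43 to 0.21). In D2A1 tumors the values were 135, 131, 126 and 166 and 134, 164, 121, 87.1 and 105 CPM (log2 fold change 0.19 ± 0.18, adjusted p = 0.87, interval -0.17 to 0.55). Both intervals rest on standard errors derived from the F statistic of the test and on a normal approximation. With so few libraries they are approximate and likely too narrow. Of 10 interferon gamma response genes tested beside it, 3 were higher in BALB/c in D2.1 tumors and 8 in D2A1 tumors, such as Cxcl9, a T cell chemokine (log2 fold change 4.01 ± 0.35, adjusted p = 0.0013 in D2A1). Among all genes, 0.891% were called in either direction in D2.1 and 1.17% in D2A1 tumors. Wars was lower in D2.1 than D2A1 in BALB/c tumors (log2 fold change -0.65 ± 0.16, adjusted p = 0.0093). In culture it had 119, 131 and 94.6 CPM in D2.1 and 161, 163 and 157 CPM in D2A1 (log2 fold change -0.45 ± 0.14, adjusted p = 0.031), and was not called by edgeR without D2.1 culture replicate 1 (0.066), D2.1 culture replicate 3 (0.054), D2A1 culture replicate 1 (0.091) and D2A1 culture replicate 2 (0.091).

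Kars and Gars, which serve both compartments, were compared in the same way. Kars had 276, 314, 281 and 309 CPM in D2.1 and 328, 375, 396 and 371 CPM in D2A1 BALB/c tumors, without overlap but not called (log2 fold change -0.31 ± 0.12, adjusted p = 0.08), and with the replicate as a block it was called (adjusted p = 0.029). In culture Kars had 395, 479 and 323 and 539, 552 and 414 CPM (log2 fold change -0.30 ± 0.19, adjusted p = 0.23, with the block adjusted p = 0.011). In SCID-beige tumors it had 298, 276, 333, 344 and 222 CPM in D2.1 and 431, 381, 327, 307 and 334 CPM in D2A1 (log2 fold change -0.27 ± 0.16, adjusted p = 0.2). Gars had 180.4, 187, 188 and 232 CPM in D2.1 and 286, 356, 376 and 339 CPM in D2A1 BALB/c tumors (log2 fold change -0.78 ± 0.14, adjusted p = 0.0021). In culture Gars had 345, 389 and 238 and 447, 476 and 433 CPM (log2 fold change -0.45 ± 0.19, adjusted p = 0.084, with the block adjusted p = 0.002), and in SCID-beige tumors 317, 200.1, 218.2, 283 and 243 and 455, 393, 309.7, 266 and 335 CPM (log2 fold change -0.48 ± 0.18, adjusted p = 0.055). From culture to tumor Kars fell in D2A1 (log2 fold change -0.53 ± 0.17, adjusted p = 0.017), but was not called by edgeR without D2A1 culture replicate 1 (0.078) and D2A1 culture replicate 2 (0.083). Gars was not called in tumors against culture in either line (log2 fold change -0.40 ± 0.21, adjusted p = 0.12 in D2.1).

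Eprs, whose culture values are given above, had 161, 188, 126 and 134 CPM in D2.1 and 273, 335, 203 and 199 CPM in D2A1 BALB/c tumors (log2 fold change -0.72 ± 0.20, adjusted p = 0.021). It was not called by edgeR there without D2.1 BALB/c replicate 3 (0.062), D2.1 BALB/c replicate 4 (0.056), D2A1 BALB/c replicate 1 (0.051) and D2A1 BALB/c replicate 2 (0.053). In SCID-beige tumors it had 214.7, 135, 221, 243 and 184 and 208, 163, 244, 229 and 329 CPM, and the lines overlapped (log2 fold change -0.23 ± 0.20, adjusted p = 0.42). In D2.1 tumors against culture its call (log2 fold change -0.55 ± 0.19, adjusted p = 0.031) was lost without D2.1 culture replicate 1 (0.055), D2.1 culture replicate 2 (0.12) and D2.1 SCID-beige replicate 5 (0.063).

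Hars and Hars2 lie next to each other on chromosome 18 in opposite orientation and share 195 exon bases, 7.97% of Hars and 4.56% of Hars2. Hars had 76.3, 75.2, 74.4 and 74.9 CPM in D2.1 and 112, 123, 131 and 142 CPM in D2A1 BALB/c tumors (log2 fold change -0.75 ± 0.13, adjusted p = 0.0015), while Hars2 had 34.8, 40.7, 44.6 and 25.2 and 28.3, 29.8, 27.5 and 33.5 CPM (log2 fold change 0.29 ± 0.20, adjusted p = 0.29). In culture Hars had 147, 177 and 121 CPM in D2.1 and 193, 189 and 147 CPM in D2A1, and Hars2 had 33.0, 27.7 and 34.8 and 31.9, 31.6 and 34.8 CPM. Neither gene was called between the lines in culture or in SCID-beige tumors. Hars fell from culture to tumor in D2.1 (log2 fold change -0.72 ± 0.19, adjusted p = 0.008; not called by edgeR without D2.1 culture replicate 2 (0.052)) and in D2A1 (log2 fold change -0.67 ± 0.14, adjusted p = 0.002), and Hars2 was not called in either line (log2 fold change 0.17 ± 0.15, adjusted p = 0.36 and log2 fold change -0.09 ± 0.16, adjusted p = 0.65).

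Of 8 mitochondrial translation factors 2 were lower and 1 higher in D2.1 culture, 2 were lower in D2.1 BALB/c tumors and 1 in D2.1 SCID-beige tumors. Among all genes, 20.7% were called lower and 24.2% higher in culture, 15.8% and 16.8% in BALB/c, and 14.8% and 17.2% in SCID-beige tumors. The counts between lines in this paragraph come from short lists and are to be read beside these shares. Gfm1, the mitochondrial elongation factor G, was lower in D2.1 in culture (log2 fold change -0.97 ± 0.11, adjusted p = 0.00014), in BALB/c (log2 fold change -1.23 ± 0.13, adjusted p = 7.9e-05) and in SCID-beige tumors (log2 fold change -0.52 ± 0.16, adjusted p = 0.027). Of Gatb, Gatc and Qrsl1, the subunits of the amidotransferase by which mitochondria make glutaminyl tRNA, and Mtfmt, which formylates the initiator methionyl tRNA, Gatb and Gatc were lower in D2.1 culture and only Gatb in each kind of tumor (log2 fold change -0.94 ± 0.20, adjusted p = 0.0052 in BALB/c). Of 6 cytosolic elongation factors, Eef2 was higher in D2.1 in culture (log2 fold change 0.55 ± 0.20, adjusted p = 0.048) and in BALB/c tumors (log2 fold change 0.85 ± 0.16, adjusted p = 0.0024), 1 was lower in BALB/c and 2 were lower in SCID-beige tumors. Of the 3 scaffold proteins of the multisynthetase complex, Eef1e1 was lower in D2.1 BALB/c tumors (log2 fold change -1.14 ± 0.20, adjusted p = 0.0019) and 0 were called in culture or SCID-beige tumors. From culture to tumor, Gfm1 fell in both lines (log2 fold change -1.13 ± 0.17, adjusted p = 0.00028 in D2.1 and log2 fold change -1.60 ± 0.14, adjusted p = 2.9e-06 in D2A1). Of the 8 mitochondrial factors 3 were lower and 1 higher in D2.1, and 5 lower and 1 higher in D2A1. The shares of all genes were 22.3% lower and 30.8% higher in D2.1 and 24.5% and 33.6% in D2A1.

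The integrated stress response is a program that lowers translation and raises amino acid supply through Atf4. Of 17 of its targets, 10 were lower and 2 higher in D2.1 BALB/c tumors, with a median of -0.85, among them Phgdh (log2 fold change -2.05 ± 0.18, adjusted p = 2.2e-05) and Asns (log2 fold change -1.63 ± 0.16, adjusted p = 3.5e-05), enzymes of serine and asparagine synthesis. In culture 2 were lower and 3 higher, with Ddit4, an inhibitor of mTORC1, the largest difference (log2 fold change 3.27 ± 0.18, adjusted p = 2.6e-06), and in SCID-beige tumors 3 were lower and 3 higher. Among all genes, 15.8% were called lower and 16.8% higher between the lines in BALB/c, 20.7% and 24.2% in culture, and 14.8% and 17.2% in SCID-beige tumors. From culture to SCID-beige tumor 6 were lower and 4 higher of the 17 in D2.1 and 8 were lower and 5 higher in D2A1. The shares of all genes there were 22.3% lower and 30.8% higher in D2.1 and 24.5% and 33.6% in D2A1. Asns was lower in BALB/c than in SCID-beige D2.1 tumors (log2 fold change -1.19 ± 0.25, adjusted p = 0.048), the only one of the 17 called between hosts. Between hosts 0.891% of all genes were called in D2.1 and 1.17% in D2A1 tumors.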

How the data were processed

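The authors aligned reads with STAR to the mouse genome (mm10, per the labels) and deposited read counts per gene and FPKM, in separate tables for culture and tumors. The deposited FPKM equalled the count divided by gene length and library total in 100% of genes (tolerance 0.001). Their gene lengths differ between the tables, so comparisons used counts. The 36 members, the other gene lists and the tests were chosen with earlier results of these data known.

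Counts were tested with edgeR 4.0.16 in R 4.3.3 (TMM scaling, filterByExpr, robust quasi-likelihood test, Benjamini-Hochberg adjustment over all genes), with only the libraries of each comparison, and called at an adjusted p under 0.05. DESeq2 1.42.0, other scalings and filters, the replicate block, the GC slope and leaving out each library were alternatives. CPM used TMM factors over 34519 genes shared by the tables, and CPM per kb used GENCODE M21 exon lengths. Tests were tried on simulated data first. Named members were, in each comparison, up to 3 called cytosolic and 3 called mitochondrial members with the largest change (the lowest p where none was called), plus Wars, Kars, Gars, Eprs, Hars and Hars2. Tars, Tars2, Farsa in culture, Fars2 and Rars2 in D2A1 and the members in ratios were added after their values were seen.

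Library totals give the depth, and their counting error is small beside the spread between libraries: over 38 replicate pairs, chi-square per degree of freedom was 4.96 to 117, so no library was counted as a duplicate. Replicate numbers were taken to pair libraries where the deviations of every same-numbered pair correlated over 0.1. No label states such a pairing, and the rule was applied to the same counts that were then tested. Only same-numbered libraries were correlated, so the rule cannot show that libraries were paired, and fits with the block are alternatives only. This held between lines in culture (0.332, 0.184 and 0.491), between lines in BALB/c (0.100 to 0.491) and between culture and tumors of D2A1 (0.131 to 0.273), and not in the other comparisons. No protein sequence was used here.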

Additional observations from a re-analysis of the deposited data

Results flagged for a closer look

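Of 144 groups of 4 or 5 libraries tested for a value far from the rest, 7 had such a value, and chance flags about 1 in 20. Gars stood at 232 CPM in D2.1 BALB/c replicate 4, where the other tumors were at 180.4 to 188 CPM. Fars2 stood at 30.9 CPM in the same library, with the others at 24.8 to 25.7 CPM. That library also had the highest sums of skin and B cell markers (114 and 49.0 CPM), whose part in these values was not tested. Iars2 stood at 70.8 CPM in D2.1 SCID-beige replicate 4, with the others at 42.5 to 49.1 CPM. Nars and Rars stood at 268 and 136 CPM in D2A1 SCID-beige replicate 4, below the other tumors at 291 to 300 CPM for Nars and 169 to 181 CPM for Rars. Nars2 stood at 13.8 CPM in D2A1 BALB/c replicate 3, with the others at 19.2 to 19.7 CPM. Yars2 stood at 36.8 CPM in D2A1 SCID-beige replicate 2, with the others at 26.4 to 27.2 CPM.

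The change from culture to SCID-beige tumor differed between the lines by the interaction test for Farsa (difference of log2 fold changes 0.89), Mars2 (1.48) and Rars2 (-1.04).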

How the results depend on the processing

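The 3 line comparisons kept the direction of both medians under every alternative run, except that the cytosolic median in culture was 0.012 with the replicate block and GC slope. With the GC slope alone the culture comparison called 2865 genes, 3 cytosolic and 5 mitochondrial members, with a mitochondrial median of -0.70. Library totals called 13 cytosolic members in culture, with a mitochondrial median of -0.69, and the replicate block called 14. In BALB/c the medians were -0.65 and -0.52 with the GC slope, the mitochondrial median was -0.66 with library totals, and the block with the GC slope called 545 genes, 1 cytosolic and 1 mitochondrial member, with medians of -0.62 and -0.38. In SCID-beige tumors the block with the GC slope called 2345 genes, 2 cytosolic and 3 mitochondrial members. The cause of these shifts was not tested, but the block with the GC slope left 1, 2 and 3 residual degrees of freedom in culture, BALB/c and SCID-beige.

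Between hosts in D2.1, DESeq2 called 461 genes and 1 cytosolic member, no filter 275 genes, 1 fit of all tumors 261 and the replicate block 14. In D2A1 DESeq2 called 569 genes and the replicate block 0, against 170. For the difference of host effects, DESeq2 called 105 genes, DESeq2 size factors 6 and no filter 7. From culture to tumor, the mitochondrial median in D2.1 was -0.14 with library totals and -0.36 with the replicate block, the cytosolic and mitochondrial medians in D2A1 were -0.61 and 0.0065 with library totals, the latter a change of sign, and no filter left 0 cytosolic members in the difference between lines. In comparisons whose numbers were not taken to pair libraries, the replicate block added the call of Gars in SCID-beige tumors (adjusted p = 0.036) and removed those of Aars, Sars2 and Wars2 in D2.1 tumors against culture (adjusted p = 0.058, 0.14 and 0.094). Its other changes to calls of members are given with the results.

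Leaving out 1 library gave 4 to 8 cytosolic calls and a mitochondrial median as small as -0.48 in culture, a cytosolic median of -0.75 to -0.65 in BALB/c, 26 to 314 genes between hosts in D2.1 and 27 to 172 in D2A1, 6 to 15 cytosolic and 3 to 7 mitochondrial calls in D2.1 tumors against culture, a mitochondrial median of -0.25 to -0.013 in D2A1 tumors against culture, 0 to 12 genes for the difference of host effects, and 0 to 1 cytosolic and 1 to 2 mitochondrial calls for the difference between lines from culture to tumor.

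The ratio of summed cytosolic to mitochondrial FPKM depended on the gene lengths and on Lars2. As a ratio of medians it was 7.38, 9.24, 6.17, 4.37 and 6.66 in D2.1 culture, D2A1 culture, D2.1 BALB/c, D2A1 BALB/c and D2.1 SCID-beige. Without the most abundant member of each class it was 11.2, 8.83, 7.45, 6.15, 8.15 and 6.08, with D2A1 SCID-beige last, with GENCODE lengths 8.28, 7.73, 6.65, 6.87, 7.55 and 6.18, and with GENCODE lengths and without Lars2, an alternative added after the data were seen, 13.3, 10.3, 9.88, 8.28, 10.8 and 8.35.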
